A study of Caenorhabditis elegans with 2 samples.

Results

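Small nucleolar RNA (snoRNA) genes were examined as sites where a tagged F26F4.8 protein was recovered from the chromatin of Caenorhabditis elegans larvae. The set was every nuclear gene of biotype snoRNA in the Ensembl annotation of WBcel235, with 200 bp added on both sides. It held 346 genes among 46890 annotated nuclear genes, in 326 loci once genes with overlapping windows were merged. A peak belonged to a gene when its summit lay in the window, and summits within 200 bp of a tRNA gene were to be dropped. That rule removed 534 summits of the whole list but 0 in these windows. Genes with no peak stayed in the set.

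Chromatin immunoprecipitation followed by sequencing (ChIP-seq) had been performed on whole L4 larvae of strain OP776, 48 hours old, synchronised by bleaching and starvation as L1 larvae. The strain carries the integrated transgene wgIs776, in which F26F4.8 is fused to TY1, EGFP and 3xFLAG tags, with an unc-119(+) rescue in an unc-119(tm4063) background. An anti-GFP antibody was used. There was 1 group of 2 biological replicates and no contrast between conditions, since neither untagged animals nor a mock precipitation entered the comparison. Recovery that does not depend on the tagged protein cannot be told apart from recovery that does. The values come from all cells of the animal, and which cells contributed cannot be told from them. Sequencing depth is unknown, as read numbers were not given in the sources used here.

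A snoRNA is a short RNA that guides the chemical modification of other RNAs, mainly ribosomal RNA. Those of the C/D class, which end in a D box, guide methylation of the ribose, and those of the H/ACA class, which carry the letters ACA just before their 3′ end, guide the conversion of uridine to pseudouridine. Many animal snoRNAs are cut out of the introns of genes made by RNA polymerase II. Others have promoters of their own, and in budding yeast SNR52 is made by RNA polymerase III from an A box and a B box in a leader before the snoRNA. These boxes are the internal promoter elements of tRNA genes, where the factor TFIIIC binds.

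Peaks are called listed when they belong to the authors' conservative set, which holds peaks that repeated between the replicates at a global irreproducible discovery rate (IDR, which estimates how many of the calls at that rank or better fail to recur) of at most 0.01. The ranked list is the longer list of 109990 peaks it was taken from, of which 978, or 0.889%, are listed. Signal is the authors' deposited value for a peak, read here as its enrichment in arbitrary units. It serves to rank peaks within a list. How it was computed, and over which control, is not given in the sources used here.

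The upstream flanks of the snoRNA genes with listed peaks often held tRNA-type boxes. The 80 bases that end just before the annotated 5′ end are shown for 6 listed genes that held an A box and a B box, with both boxes in capitals. They were read from the RefSeq genome of WBcel235, the same build as ce11, on the strand of the snoRNA gene and 5′ to 3′.

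Y75B12B.12 (chrV:15191094-15191173, minus strand): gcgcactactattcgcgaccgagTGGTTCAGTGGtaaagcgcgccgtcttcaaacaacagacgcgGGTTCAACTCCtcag
C41C4.11 (chrII:8107271-8107350, minus strand): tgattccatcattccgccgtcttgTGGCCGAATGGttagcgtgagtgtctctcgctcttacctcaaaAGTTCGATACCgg
M106.6 (chrII:10840237-10840316, plus strand): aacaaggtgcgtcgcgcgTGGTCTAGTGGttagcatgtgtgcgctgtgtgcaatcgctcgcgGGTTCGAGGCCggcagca
F30H5.4 (chrIII:502724-502803, plus strand): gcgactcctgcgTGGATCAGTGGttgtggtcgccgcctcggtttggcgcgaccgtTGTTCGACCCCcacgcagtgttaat
F11A10.9 (chrIV:12086629-12086708, plus strand): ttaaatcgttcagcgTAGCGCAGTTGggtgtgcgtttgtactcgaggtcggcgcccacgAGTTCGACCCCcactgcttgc
T10B9.11 (chrII:9774835-9774914, minus strand): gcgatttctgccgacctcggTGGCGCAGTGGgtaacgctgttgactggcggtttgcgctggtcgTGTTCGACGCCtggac

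In each of these 6 flanks the A box came first, some way before the gene, and the B box ended close to its 5′ end. Listed genes with strong peaks that held only 1 of the boxes, with at most 1 mismatch, are shown next with that box in capitals. A looser copy of the other box was not counted, so these flanks need not lack it. C51F7.3 and W03C9.9 held a B box and T03F7.8 an A box. The flank of C51F7.3 runs through the end of its neighbour C51F7.4, another snoRNA gene.

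C51F7.3 (chrV:12303628-12303707, plus strand): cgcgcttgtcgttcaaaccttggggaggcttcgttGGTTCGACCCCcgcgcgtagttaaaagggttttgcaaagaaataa
W03C9.9 (chrII:11960818-11960897, plus strand): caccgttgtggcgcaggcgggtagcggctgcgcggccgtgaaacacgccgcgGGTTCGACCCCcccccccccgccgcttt
T03F7.8 (chrV:11314178-11314257, plus strand): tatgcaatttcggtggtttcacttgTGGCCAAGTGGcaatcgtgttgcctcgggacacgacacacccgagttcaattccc

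A match was allowed 1 mismatch to the A box consensus or to the B box consensus, which reads GGTTCGA, any 2 bases and CC. Each is 11 bases long, and they were searched on both strands of the 150 bp before the gene. The consensus letters differ, and an A and a B match were counted separately. A match is a description of letters in a window.

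Of the 346 snoRNA genes, 48 (13.9%; 95% Wilson interval 10.6 to 17.9) had a listed peak. Among the 45932 nuclear genes that are neither snoRNA nor tRNA genes, 1.28% had a listed summit in a window drawn the same way. That share is lowered by the 15363 piRNA genes among them, of which 3 (0.0195%) had a listed summit. A further 206 snoRNA genes had only unlisted ranked peaks and 92 had none. Together the windows held 291 ranked summits, of which 47 were listed, 1 of them shared by C51F7.3 and C51F7.4. The share was 2.29% for protein-coding genes, 1.92% for miRNA genes and 10.1% (5.98 to 16.5) for the 129 small nuclear RNA genes, and the interval of that last share overlaps that of the snoRNA genes. Genes are not replicates, so the intervals describe counting over genes and no test was made of these shares.

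The listed summits sat in front of the genes. Of the 47, 40 (85.1%; 72.3 to 92.6) lay upstream of the 5′ end, 3 lay inside the gene and 4 lay downstream. The median position was 32 bp upstream, written -32 bp, with quartiles of -48 and -11 bp. All 40 upstream summits were within 100 bp of the gene, the farthest at -85 bp in T08B2.13, and 30 of the 47 lay between 10 and 60 bp before it. The 244 unlisted summits were spread over the whole window, with 101 (41.4%; 35.4 to 47.7) upstream, 51 inside and 92 downstream, and a median of 49 bp past the 5′ end. Only 23 of the 244 (9.43%) lay between 10 and 60 bp upstream.

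**Figure D1:**
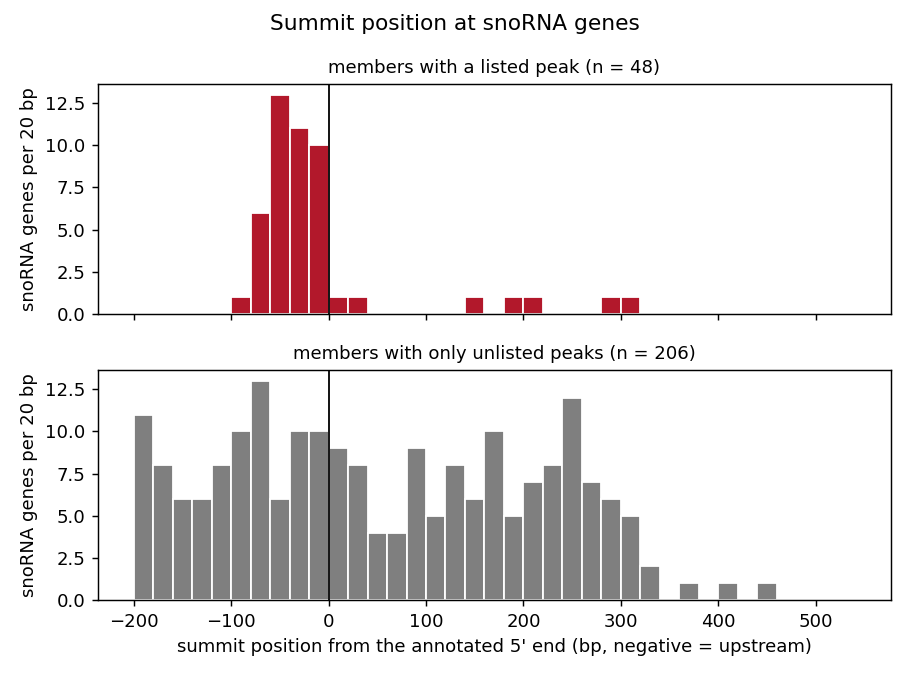
Number of snoRNA genes per 20 bp of summit position, in bp from the annotated 5′ end with upstream negative, for the strongest peak of each gene. The 48 genes with a listed peak (top) pile up in the 100 bp before the 5′ end, while the 206 genes with only unlisted peaks (bottom) are spread from -199 to 441 bp.

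Listed peaks at snoRNA genes were strong among listed peaks. Their pooled signal had a median of 183 (quartiles 139.9 and 249.9; lowest 37.3, highest 488; n = 47), against 86.2 for the 931 other listed peaks. They made up 7 of the 10, 12 of the 20, 23 of the 50 and 29 of the 100 listed peaks with the highest signal. The ranked list also held stronger peaks that were not listed, up to a signal of 4542. The strongest listed peak, at ZK994.7, had rank 15 by signal in that longer list. Unlisted peaks in the windows had a median of 30.2 (n = 244), against 23.7 for all 109012 unlisted ranked peaks. The IDR is computed from the ranks of the peaks, so the gap between listed and unlisted peaks partly follows from how the list was made.

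The signal of the strongest genes was high in both replicates. Values for each replicate come from its own ranked list, where the strongest peak overlapping the pooled peak was taken. ZK994.7, in an intron of the peroxidasin gene pxn-1 and on its strand, had the highest pooled signal of the listed peaks, 488, with 296 in replicate 1 and 179.5 in replicate 2 and its summit at -11 bp. The peak in frm-7, which encodes a protein with a FERM domain, had a pooled signal of 423, with 221 in replicate 1 and 199.7 in replicate 2, and its summit lay 72 bp before C51F7.3 and inside C51F7.4, at 37 bp. These peaks stood above all other listed peaks in snoRNA windows in pooled signal. W03C9.9, between genes on chromosome II, followed with a pooled signal of 349.6, with 192 in replicate 1 and 155 in replicate 2 and its summit at -74 bp.

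Genes of the next rank lay on the strand opposite to a host gene or outside genes. T03F7.8, in an intron of cutl-18 and on the other strand, had a pooled signal of 344, with 198 in replicate 1 and 143 in replicate 2. ZK265.10, between genes on chromosome I, had 342, with 184 and 162 in replicates 1 and 2. Y23H5B.10, also between genes on chromosome I, had 317, with 150.1 in replicate 1 and 163 in replicate 2, and no box upstream. It is 1 of several genes here with the higher value in replicate 2. T19B4.8 had 291, with 159 and 129 in replicates 1 and 2, and held an A box. Y75B12B.12, whose flank is printed above with both boxes, had 286, with 141 in replicate 1 and 143 in replicate 2.

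The ranking went on down from there. B0334.12, opposite to the potassium channel gene twk-5, had a pooled signal of 278, with 135 in replicate 1 and 147 in replicate 2. Y43F8C.22, C27H6.5 in an intron of the synaptic gene unc-41, T06C12.16, C10C6.8 in an intron of the P-type ATPase gene catp-8, H09I01.2, F55A11.10, C41C4.11 and F32E10.10 had pooled signals between 254 and 211. In these 8 genes replicate 1 ranged between 104 and 149 and replicate 2 between 94.97 and 138, so the ranges of the replicates overlapped widely. M106.6, in an intron of the condensin gene mix-1, had 204, with 88.6 in replicate 1 and 115 in replicate 2. T02E1.9, F30H5.4, T04A8.17, ZK484.9 in an intron of the transporter gene haf-9, D1046.6 in an intron of the cleavage factor gene cfim-2, and T27A3.9 completed the 25 genes with the strongest listed peaks, with pooled signals between 204 and 183.

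Replicate values of the listed genes lay close together, which the IDR filter on these same replicates selects for. Of the 47 listed peaks, 46 overlapped a peak in both replicates' own lists, and their median signal was 98.4 in replicate 1 (33.4 to 296) and 87.1 in replicate 2 (34.7 to 199.7). The ratio of replicate 1 over replicate 2 had a median of 1.14, ran from 0.635 in D1046.6 to 1.86 in W08G11.6 and was above 1 in 32 peaks. None of the 46 differed by more than 2 times between replicates, but peaks that differ widely tend to fail the IDR and stay unlisted, so this is no independent check of agreement. In the 101 genes with only unlisted peaks and a value in both lists the ratio ran from 0.231 to 3.78, with a median of 1.14. The remaining peak, at C46C2.8, had a pooled signal of 98.3 and 38.7 in replicate 2, and overlapped no peak in the ranked list of replicate 1. The cross-replicate list nevertheless paired 2 values for C46C2.8, 57.8 and 38.7. In the thresholded list of replicate 1 alone 39 of the 48 listed genes had a peak, in that of replicate 2 alone 43 did, and in both lists 37 did.

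**Figure D2:**
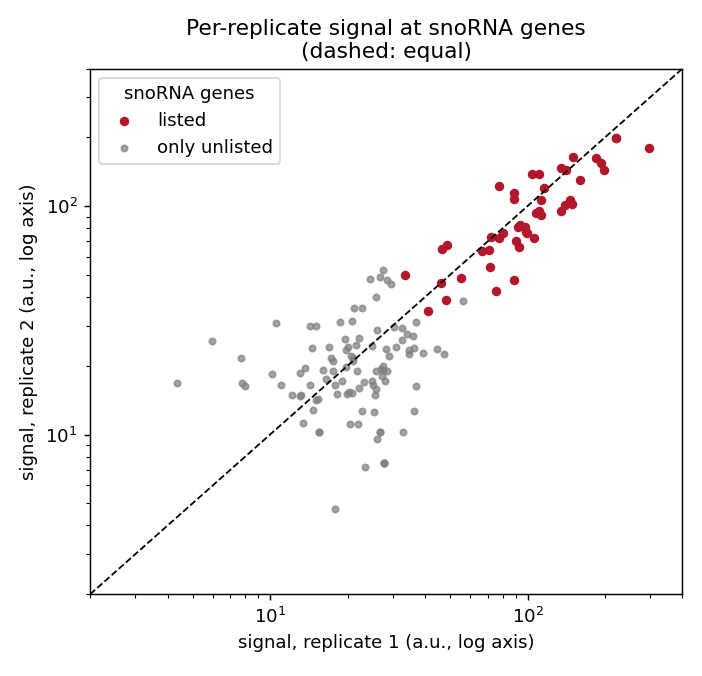
Signal of the strongest overlapping peak in the ranked list of replicate 1 (horizontal) and of replicate 2 (vertical), in arbitrary units on log axes, 1 point for each snoRNA gene with a peak in both lists. Listed genes (red) run along the dashed line of equal signal from 33.4 to 296 in replicate 1, and the 101 genes with only unlisted peaks (grey) have medians of 22.1 in replicate 1 and 19.2 in replicate 2.

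Peaks at the edges of the list showed where it stopped. The 3 listed genes with the lowest pooled signal were F54F11.6 with 74.9, K09H9.11 with 66.9 and Y43B11AR.7 with 37.3, at global IDRs of 0.00488, 0.00235 and 0.00639. Their signals in replicate 1 were 40.9, 48.2 and 33.4, and those in replicate 2 were 34.7, 39.0 and 49.7, in the same order of genes. None of these 3 summits lay upstream. The 3 unlisted genes with the highest pooled signal were Y55F3BR.9 with 98.2 and an IDR of 0.495, Y37E3.20 with 84.4 and an IDR of 0.0209, and F12F6.11 with 77.1 and an IDR of 0.0254. Y37E3.20 had 27.5 in replicate 1 and 52.3 in replicate 2, and F12F6.11 had 26.8 in replicate 1 and 48.95 in replicate 2. ZK185.9, at an IDR of 0.0110 with a pooled signal of 67.7, lay just outside the threshold, and 0 unlisted snoRNA genes were inside it.

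Of the 48 listed genes, 41 had the summit upstream, and the other 7 are each named here. In C46C2.8, C51F7.4 and K09H9.11 it lay inside the gene, at 8, 37 and 183 bp from the 5′ end. In B0334.12, Y43B11AR.7, F54F11.6 and C24A1.8 it lay downstream, at 151, 215, 282 and 308 bp. C24A1.8, in an intron of elf-1, had a pooled signal of 105, with 46.6 in replicate 1 and 64.7 in replicate 2. None of the 7 had an A or B box in the 150 bp upstream.

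Box matches were found upstream of most listed genes and of few others. At least 1 box lay upstream of 35 of the 48 listed genes (72.9%; 59.0 to 83.4), of 17 of the 206 with only unlisted peaks (8.25%; 5.22 to 12.8) and of 8 of the 92 with no peak (8.70%; 4.47 to 16.2). In windows of the same length upstream of all 19973 protein-coding genes the share was 2.71%. An A box lay upstream of 21 listed genes and a B box of 21, with 7 in both counts. In each of these cases a match lay on the strand of the snoRNA gene, and 1 listed gene had a further A match and 1 a further B match on the other strand, beginning at -112 bp in Y43F8C.22 for the A box and at -29 bp in W03C9.9 for the B box. Of the genes with an A box 8 had a match with no mismatch, and of those with a B box 5 did.

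Matches on the strand of the gene fell in narrow ranges in listed genes. In the 21 listed genes with an A box, the first base of the match on that strand lay between 69 and 52 bp before the 5′ end, with a median of -58 bp. On the same strand, the B box of 21 listed genes began between -45 and -12 bp, with a median of -17 bp, so that it usually ended a few bases before the annotated gene. In the 7 genes with both boxes (the 6 printed above and T08B2.13, in an intron of the tRNA synthetase gene fars-1) the A box came before the B box every time, with 42 to 44 bp from start to start. The summit lay between the start of the A box and the end of the B box in 6 of these 7. In unlisted genes, matches on the strand of the gene began between -116 and -50 bp for the A box (15 genes) and between -111 and -12 bp for the B box (9 genes). These ranges were wider, but the medians, -60 bp for the A box and -18 bp for the B box, were close to those of the listed genes. Quartiles in the unlisted genes were -69.75 and -56 bp for the A box and -32 and -17 bp for the B box. Matches on the other strand began between -125 and -23 bp for the A box (6 unlisted genes) and between -142 and -14 bp for the B box (2 unlisted genes).

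**Figure D3:**
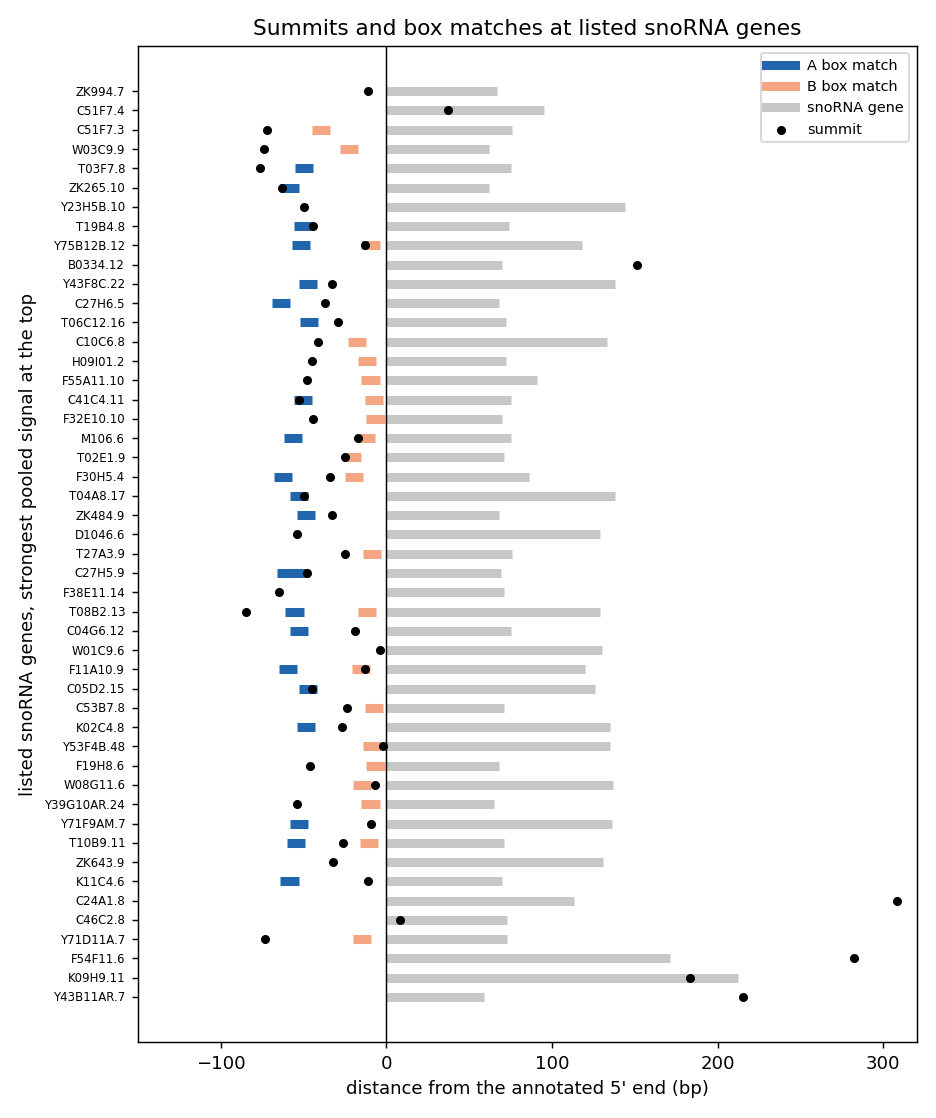
Map of the 48 listed snoRNA genes, 1 row each with the strongest pooled signal at the top, on an axis of distance from the annotated 5′ end in bp (upstream negative). Blue and orange blocks are A and B box matches on the strand of the gene with at most 1 mismatch, grey blocks the snoRNA genes and black points the summits, and the A boxes form a column that begins between -69 and -52 bp while most B boxes end just before the gene.

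Read the other way, 35 of the 60 snoRNA genes with a box had a listed peak (58.3%; 45.7 to 69.9). That share depended on the search: it was 68.4% (13 of 19) with no mismatch and 64.8% (35 of 54) within 100 bp, but 45.1% (37 of 82) from 250 bp upstream to 50 bp inside the gene and 22.3% (44 of 197) with up to 2 mismatches. With at most 1 mismatch in 150 bp, a listed peak was found for 7 of the 12 genes with both boxes (58.3%; 32.0 to 80.7), 14 of the 19 with a B box alone (73.7%; 51.2 to 88.2) and 14 of the 29 with an A box alone (48.3%; 31.4 to 65.6). The intervals of these 3 shares overlap. Of the 286 genes with neither box 13 had a listed peak (4.55%; 2.68 to 7.62). The summits of all 35 listed genes with a box lay upstream, as against 6 of the 13 with none. Those 6 were ZK994.7, Y23H5B.10, D1046.6, F38E11.14, W01C9.6 and ZK643.9.

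**Figure D4:**
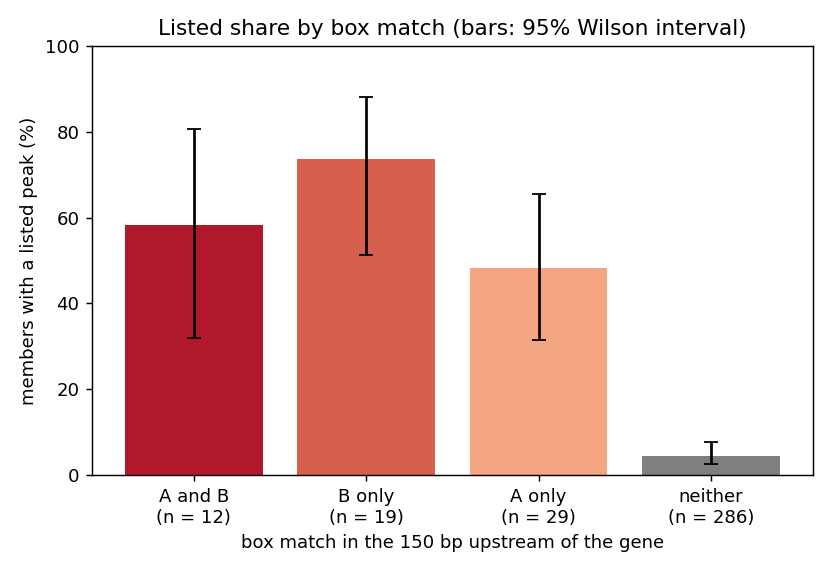
Percentage of snoRNA genes with a listed peak, by the box matches found in the 150 bp upstream of the gene, with 95% Wilson intervals over genes as error bars. The share was 58.3% with both boxes, 73.7% with a B box alone, 48.3% with an A box alone and 4.55% with neither.

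Not every flank with boxes had a listed peak, and 25 unlisted genes held at least 1. The 2 with the highest pooled signal among those with both boxes are shown for comparison, with the boxes in capitals.

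F12F6.11 (chrIV:11549865-11549944, minus strand): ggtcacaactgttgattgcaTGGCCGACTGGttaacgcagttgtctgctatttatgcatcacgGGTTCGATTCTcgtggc
T24H7.6 (chrII:6248637-6248716, plus strand): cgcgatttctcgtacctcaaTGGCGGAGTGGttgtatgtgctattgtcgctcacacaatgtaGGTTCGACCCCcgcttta

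T24H7.6 held both boxes with no mismatch, in the same order as in the listed genes. Its pooled signal was 67.0 and its IDR was 0.365. The strongest overlapping peaks had 28.4 in replicate 1 and 47.7 in replicate 2. The values paired for it in the cross-replicate list lay farther apart, at 15.5 and 47.7. The summit of T24H7.6 lay at -7 bp and a peak of the thresholded list of replicate 2 overlapped its pooled peak. A peak of that list also overlapped the pooled peak of F12F6.11, whose summit lay 83 bp past the 5′ end, beyond the gene. Y59E1B.14, on the X chromosome, held both boxes and had no ranked peak. R12E2.17 and R166.7, also with both boxes (in R166.7 the B box was on the other strand), had unlisted peaks with pooled signals of 45.4 and 40.5.

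Another short sequence recurred in the flanks. TGTCGG, chosen after the upstream sequences had been seen and searched on the strand of the gene alone, lay in the 150 bp before 38 snoRNA genes (11.0%; 8.11 to 14.7), against 1.22% of protein-coding genes. Of those 38 genes 37 held no box, as did 286 of all 346 (82.7%), and 249 of these 286 also lacked TGTCGG. Listed peaks were found at 2 of them (5.26%; 1.46 to 17.3), ZK994.7 and Y43B11AR.7, against 46 of the 308 genes without it (14.9%; 11.4 to 19.3). The flanks of ZK994.7, the strongest listed peak in the set, and of Y55F3BR.9, the unlisted gene with the highest pooled signal, are shown with TGTCGG in capitals.

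ZK994.7 (chrV:8500499-8500578, plus strand): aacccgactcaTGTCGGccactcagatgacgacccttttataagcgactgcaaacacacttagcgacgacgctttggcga
Y55F3BR.9 (chrIV:867134-867213, minus strand): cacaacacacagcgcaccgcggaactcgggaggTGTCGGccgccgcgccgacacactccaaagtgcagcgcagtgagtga

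Y55F3BR.9 had 56.0 in replicate 1 and 38.5 in replicate 2, each from the strongest overlapping peak of its list, and its summit lay downstream of the gene. The values paired for Y55F3BR.9 in the cross-replicate list were 56.0 and 11.9.

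By genomic place and strand, the shares of genes with a listed peak had overlapping intervals. Inside an intron and on the strand of the host gene it was 20 of 142 genes (14.1%; 9.31 to 20.8). Inside an intron but on the other strand it was 6 of 27 (22.2%; 10.6 to 40.8). Outside protein-coding genes it was 17 of 124 (13.7%; 8.74 to 20.9), and overlapping an exon it was 5 of 53 (9.43%; 4.10 to 20.3). Median pooled signals of the listed genes were 169 in same-strand introns, 199 in opposite-strand introns, 211 outside genes and 183 over exons, with ranges that overlapped in all 4 classes.

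**Figure D5:**
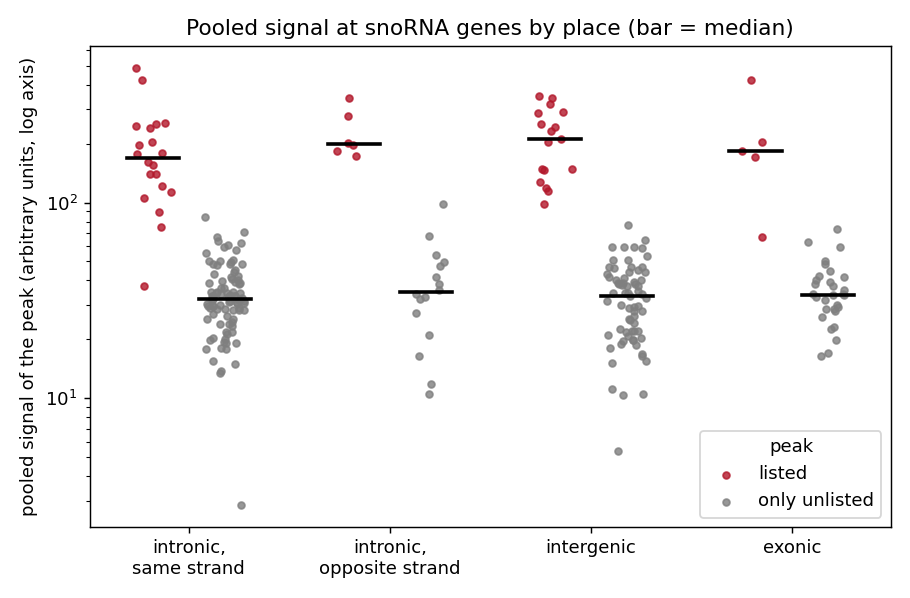
Pooled signal of the strongest peak of each snoRNA gene in arbitrary units on a log axis, by place and strand against the host gene. Listed genes (red) and genes with only unlisted peaks (grey) are points and the bars are medians, which for listed genes are 169, 199, 211 and 183 from left to right.

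Within each place, the share was higher in genes with a box, though some of these classes are small. In same-strand introns 14 of 24 genes with a box were listed (58.3%), against 6 of 118 without (5.08%). In opposite-strand introns it was 5 of 8 with a box (30.6 to 86.3) against 1 of 19 without (0.935 to 24.6). Outside genes it was 14 of 24 with a box (58.3%) against 3 of 100 without. Over exons it was 2 of 4 with a box against 3 of 49 without.

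Ribosomal protein genes carry snoRNAs in their introns in many animals, and they were grouped by name with some translation factor and nucleolar protein genes. Of the 25 snoRNA genes in same-strand introns of genes named rpl, rps, eef, eif, nol or fib, 1 was listed (4%; 0.710 to 19.5), against 19 of 117 in other same-strand introns (16.2%; 10.6 to 24.0). These intervals overlap. The listed gene was Y43B11AR.7 in rps-4, a small ribosomal subunit gene, whose peak is the weakest listed and lies downstream of the snoRNA. nol-56, a C/D snoRNP protein gene, carried 4 snoRNA genes, and rpl-6 and the topoisomerase gene top-2 carried 3 each, with 0 listed. The grouping goes by these names alone and leaves out other genes of translation, such as fars-1, whose snoRNA gene T08B2.13 was listed with a pooled signal of 176. In same-strand introns 3 of 58 genes within 75 bp of the exon upstream were listed (5.17%; 1.77 to 14.1) and 17 of 84 farther from it (20.2%; 13.0 to 30.04). This split is not separate from the one by name, since the snoRNA genes in introns of rpl and rps genes all lie within that distance.

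Short snoRNA genes were listed most often. Of the 56 genes of up to 80 bp 27 were listed (48.2%; 35.7 to 61.0). Above that it was 6 of 75 at 81 to 120 bp (8%), 13 of 122 above 120 and up to 160 bp (10.7%; 6.33 to 17.4) and 2 of 93 among longer genes (2.15%; 0.592 to 7.51). Listed genes had a median length of 75 bp, against 131 bp for genes with only unlisted peaks and 134.5 bp for genes with none. Length and boxes went together: of the 25 genes of up to 80 bp with a box 22 were listed (88%; 70.0 to 95.8), against 5 of the 31 without (16.1%; 7.09 to 32.6). Among longer genes it was 13 of 35 with a box (37.1%; 23.2 to 53.7) and 8 of 255 without (3.14%; 1.60 to 6.07). The intervals with and without a box did not overlap in either length class. Those of short and longer genes did not overlap either, among genes with a box or among genes without.

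Letters typical of the ends of both snoRNA classes were found among the listed genes. The letters CTGA of a D box lay in the last 12 bases of 19 of the 48 listed genes (39.6%; 27.0 to 53.7), of 36 of the 206 with only unlisted peaks (17.5%) and of 16 of the 92 with none (17.4%). ACA lay 3 bases before the 3′ end in 14 listed genes (29.2%; 18.2 to 43.2), 37 with only unlisted peaks (17.96%) and 7 with none (7.61%). Of the 27 listed genes of up to 80 bp 16 ended in a D box and 2 in ACA, and of the 21 longer ones 3 ended in a D box and 12 in ACA. These short motifs were added after the sequences had been seen, and in most genes outside the listed set neither was found at the annotated end.

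Past the gene, a run of 4 T, the letters at which RNA polymerase III stops, lay within 50 bp downstream of 44 of the 48 listed genes (91.7%; 80.4 to 96.7). It did so in 134 of 206 with only unlisted peaks (65.0%; 58.3 to 71.2) and 63 of 92 with none (68.5%; 58.4 to 77.1). The 150 bp upstream of the listed genes had a median GC content of 51.3%, against 44% for genes with only unlisted peaks, 38% for genes with none and 32.7% for protein-coding genes. The part of GC content in the peaks was not tested.

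Listed genes lay on every nuclear chromosome. Their share was 20% on V (11 of 55; 11.6 to 32.4) and 16.9% on II (12 of 71; 9.94 to 27.3), and it was between 11.1% and 13.6% on I, III and IV. On the X chromosome 1 of 33 genes was listed (3.03%; 0.537 to 15.3), C53B7.8, with a pooled signal of 149 and 77.2 in replicate 1 against 72.7 in replicate 2. The intervals of all 6 chromosomes overlap.

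Other small RNA annotations lay near some of these peaks. Pseudogenic tRNA genes, taken from RefSeq, lay within 200 bp of the summit at 3 listed genes, D1046.6, T08B2.13 and F19H8.6, and 16 of the 48 had a gene of biotype ncRNA within that distance. These counts stand without a share for the other snoRNA genes. Some unlisted genes, such as Y55F3BR.9 and Y37E3.20, also had an ncRNA gene that near. The part of these annotations in the peaks was not tested. No snoRNA gene of the set had an identical copy of its sequence among the others.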

How the data were processed

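ChIP-seq peak lists of the 2 replicates on the ce11 build, as the authors deposited them, were the starting point. Per the labels, the group was 1 strain at 1 stage, and the file records name an input as a possible control. For the aligner, the caller and the read numbers, which bear on weak peaks, nothing is given in the sources used here. The authors' deposited signal was read as an enrichment per peak, with no scaling between lists stated. The deposited score, a whole number from the IDR step, was not used. The deposited −log10 values were read as those of the global IDR and turned back into IDRs. In the cross-replicate list 2 signal columns are unnamed, and values per replicate were therefore taken from each replicate's own list. Values described as paired are those of these 2 columns. The first column equalled a peak of replicate 1 at 46 of the 47 listed peaks and the second a peak of replicate 2 at all 47.

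From these lists, summits were placed against Ensembl release 115 genes of WBcel235 (Python 3.11.15, pandas 2.3.3, numpy 2.4.6), with the place and strand of each snoRNA gene set by protein-coding genes. RefSeq gave the same coordinates for all 346. Coordinates are 1-based. The search for boxes and the placing of summits were tested on simulated data. Shares carry 95% Wilson intervals (scipy 1.17.1) that cover counting over genes, and no significance test was made, since there was 1 group.

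Named genes were the 25 with the strongest listed peaks, the 3 weakest listed, the 3 strongest unlisted, any listed gene whose replicates differed by more than 2 times, and those with a listed summit inside or downstream. Other genes named, such as T24H7.6 and the hosts, were chosen after their values were seen. The set of genes, the boxes and the lists were chosen with earlier results of these data known. Alternatives changed the window, the tRNA rule, the listed set, the replicate used, the way genes were counted, and the box search. TGTCGG, the D box and the ACA were added after seeing the data.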

Additional observations from a re-analysis of the deposited data

How the results depend on the processing

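Keeping summits near tRNA genes, using RefSeq genes and taking all peaks past the IDR selected the same peaks and genes, so their 27 values could not differ. Of the 80 values under other alternatives, 72 stayed close to the value reported (within its interval or replicate spread or, for a count, a fixed fold) and 8 moved. Some of the 72 could not differ either. Upstream share, median position and median signal were taken over peaks placed at their nearest gene, so merging genes left them fixed. Giving each peak to its nearest gene likewise fixed the upstream share and position. The stricter IDR could not change the number of genes with a ranked peak. The median summit position stayed upstream under each of the 9 other alternatives that gave one. Merged genes and the nearest-gene rule are among these 9 and could not change it. The median signal of listed peaks, 183, was 196 with a window of 100 bp and 204 at an IDR of at most 0.001, where the upstream share was 94.7%. The share of listed genes with a box, 72.9%, was 27.1% with no mismatch allowed and 91.7% with up to 2, against 2.01% and 51.3% of the genes that were not listed.

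With 1 replicate's own lists in place of the pooled ones, listed genes numbered 40 and 43, genes with a ranked peak 199 and 200, and the upstream share was 83.3% to 89.7%. The median position was -38 to -28 bp. The box share was 80% to 83.7%. The median signal was 94.2 to 106, on the scale of lists made from 1 replicate each. The listed share was 10.6% to 11.97% in same-strand introns, 22.2% in opposite-strand introns in each list, and 11.3% to 12.9% outside genes. No paired analysis was possible because there was 1 group and no test. The peaks at C46C2.8, F54F11.6 and K09H9.11 were in neither replicate's own thresholded list, and that at Y43B11AR.7 had the lowest pooled signal. By these marks they are the least certain of the listed peaks. Read depth, which limits weak peaks, is unknown.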
